A study of Mus musculus with 8 samples.

Results

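A group of 10 genes that build, read or remove ubiquitin chains in signalling to NF-κB was followed in intestinal organoids exposed to RANKL. They are Tnfaip3 (encoding A20), the ABIN genes Tnip1, Tnip2 and Tnip3, the A20 adaptor gene Tax1bp1, the deubiquitinase genes Cyld and Otulin, and the genes of the linear ubiquitin ligase LUBAC, Rnf31 (HOIP), Rbck1 (HOIL-1) and Sharpin. They were taken by symbol, 10 of the 54532 genes listed in the count table. The rule itself uses no measured value, but the genes were chosen with earlier results of these data known. Organoids were grown from mouse small intestinal crypts in medium with EGF, NOGGIN and R-spondin. Control cultures (n = 4) received no RANKL and treated cultures (n = 4) received RANKL. The mouse lines of the study had a C57BL/6J background, and ages are stated only as a range over all its mice. The sex and age of the mice behind these libraries, and the dose and duration of RANKL for them, are not given in the sources used here, and nothing says whether replicates came from separate cultures or animals, so p-values measure the spread between these libraries, which may be technical.

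Total counts on genes ran from 583663 to 7807298 per library, with 2.81 times as many in the controls together as under RANKL. Levels are given as TMM-scaled CPM, the counts scaled to a library of standard size, in the order of replicates 1 to 4. Where no count was seen, up to 3 remain possible, equal to 0.382 CPM for control replicate 1 with the most counts and 5.16 CPM for control replicate 4 with the fewest. Exact binomial intervals and floors cover counting error only. Intervals of log2 fold changes come from the standard error of edgeR's fit and also cover the spread between libraries. The 8 epithelial markers, Epcam, Vil1 and Cdh1 among them, summed to between 6002 and 6940 CPM in control and between 6023 and 6467 CPM in RANKL libraries, with Krt18 and Krt19 lower. The 12 immune markers summed to between 5.16 and 11.5 CPM in control and between 8.26 and 16.1 CPM in RANKL libraries. Csf1r held 123 of their 237 counts, while 5 of the 12 markers, including Cd3e and Itgax, had 0 counts throughout. The 9 stromal markers summed to between 15.7 and 37.8 CPM in control and between 29.6 and 46.8 CPM in RANKL libraries. Of these, 2 were tested and Pdgfrb, a receptor gene of mesenchymal cells, was higher, while Dcn had 0 counts throughout. Endothelial markers summed to at most 3.44 CPM. Markers of M cells, the antigen-sampling cells that RANKL is known to induce, rose with treatment. All 8 of the 10 listed that were tested were higher, and the sum over the 10 went from between 136.3 and 182.0 CPM in control to between 2168 and 2498 CPM with RANKL. Gp2, a defining marker of mature M cells, had 0 counts in every library. The part of M cells, stromal cells or immune cells in the changes below was not tested. In bulk RNA, a change in the number of cells of a type and a change in RNA per cell cannot be told apart.

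Receptors of the TNF family, RANK among them, recruit TRAF proteins and ubiquitin ligases that assemble ubiquitin chains on signalling proteins, and the chains hold the kinases that release NF-κB. LUBAC adds linear chains, with HOIP as the catalytic subunit and HOIL-1 and SHARPIN as partners. A20, the product of a classical NF-κB target gene, edits or binds these chains and ends the signal, helped by ABIN proteins and TAX1BP1, while CYLD and OTULIN cut chains directly. A20 and ABIN1 are known in the gut for restraining inflammation and cell death of the epithelium.

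The sequences upstream of the transcript starts were searched for the NF-κB consensus, a degenerate motif of 10 bases, on both strands, with overlapping matches counted as 1 site. Windows were the 250 bases before each RefSeq start on GRCm38.p6. A window was found for 9 of the 10 genes, all but Sharpin. Of 27025 mouse genes with a window, 8.23% held a match, and among the members Tnfaip3, Tnip1, Tnip3 and Cyld did, whereas Tnip2, Tax1bp1, Otulin, Rnf31 and Rbck1 did not. Every site found in these windows is shown, and any part of the sites in the changes below was not tested. Each is written 5′ to 3′ on the strand of the gene, with the matching bases in capitals:
Tnfaip3, chr10:19015516-19015545, minus strand: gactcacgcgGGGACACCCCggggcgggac
Tnfaip3, chr10:19015411-19015432, minus strand: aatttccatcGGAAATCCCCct
Tnip1, chr11:54962978-54963007, minus strand: tccatcatgGGGGAATTCCCCtcctgcctc
Tnip3, chr6:65590334-65590363, plus strand: gagacatcctGGGAAATCCCagttacatgg
Cyld, chr8:88696863-88696892, plus strand: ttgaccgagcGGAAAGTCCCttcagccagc

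The Tnip1 site was a perfect palindrome of 12 bases that held 2 matches on each strand and lay 58 to 47 bases before the start. The sites of Tnfaip3 lay 125 to 116 and 12 to 3 bases before its RefSeq start at 19015410. The window of its RefSeq start at 19011963 held 0 matches. The site of Tnip3 lay 54 to 45 and that of Cyld 155 to 146 bases before their RefSeq starts. By the gene coordinates given below, the sites of Tnfaip3 and Tnip3 lie inside the spans of these genes. On the strand of the gene, none of these sites fell in an exon of GENCODE M21. In the windows of Tnip1, Tnip3 and Cyld no exon of either strand was annotated. The whole stretches of Tnip1 and Cyld give the setting of their sites, again with the matches in capitals:
Tnip1, chr11:54962941-54963190, minus strand: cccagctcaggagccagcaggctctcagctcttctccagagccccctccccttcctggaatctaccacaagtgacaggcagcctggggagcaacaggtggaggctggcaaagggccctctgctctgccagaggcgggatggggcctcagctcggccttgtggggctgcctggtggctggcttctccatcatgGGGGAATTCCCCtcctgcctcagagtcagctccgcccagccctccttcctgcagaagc
Cyld, chr8:88696778-88697027, plus strand: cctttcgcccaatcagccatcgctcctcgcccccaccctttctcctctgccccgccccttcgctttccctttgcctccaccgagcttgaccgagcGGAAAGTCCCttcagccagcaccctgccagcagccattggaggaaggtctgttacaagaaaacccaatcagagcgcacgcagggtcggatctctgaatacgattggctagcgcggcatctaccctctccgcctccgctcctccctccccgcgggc

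Over all 7680 tested genes with a window, 10.4% held a match. The share was 14.9% of the 1072 that were higher with RANKL, 11.0% of the 939 that were lower and 9.44% of the 5669 others. These shares are descriptions, and a match is a run of letters in a window rather than a shown site of binding.

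**Figure D1:**
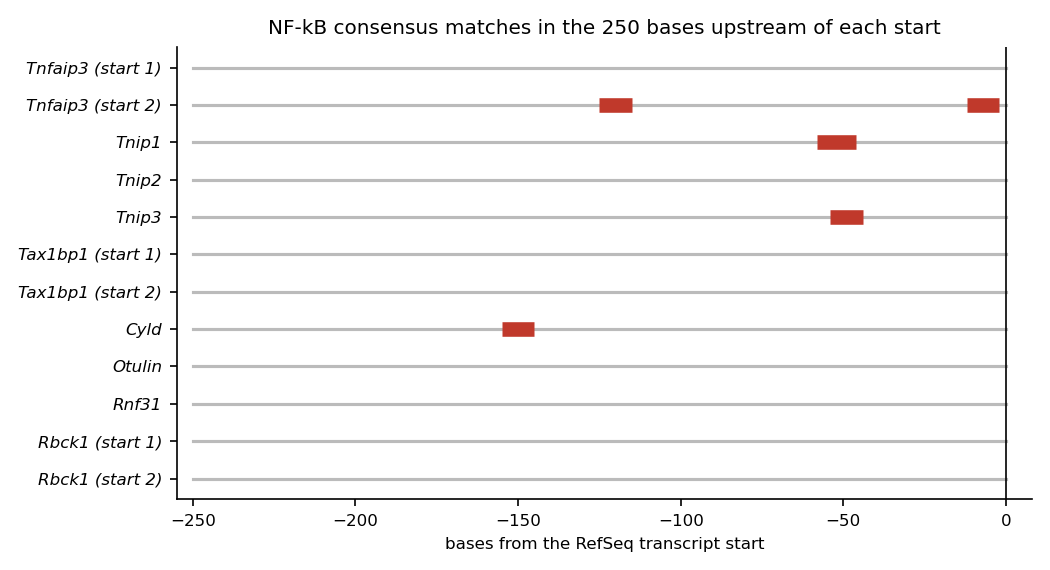
Position of NF-κB consensus matches (red blocks) in the 250 bases upstream of each RefSeq transcript start (grey lines, bases from the start on the horizontal axis). Genes with 2 RefSeq starts have 2 lines, and the blocks lie in 1 window of Tnfaip3 and in those of Tnip1, Tnip3 and Cyld.

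With RANKL, Tnfaip3, Tnip1 and Cyld rose, Tax1bp1 fell, and Otulin, Rnf31, Rbck1 and Sharpin did not pass the threshold. Of the 10 genes, 8 had enough counts for the test, and 3 of these were higher and 1 lower, where 13.6% of the 9971 genes tested were higher and 12.4% lower (edgeR's quasi-likelihood test, adjusted p under 0.05). The median log2 fold change was 0.30 over the 8 genes and 0.00 over all genes tested. Without overlap between the groups, 4 of the 10 genes were higher in RANKL libraries and 1 was lower. One of the 4, Tnip3, rests on counts of 2 or fewer per library. The corresponding shares of the genes tested were 13.1% and 11.5%.

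**Figure D2:**
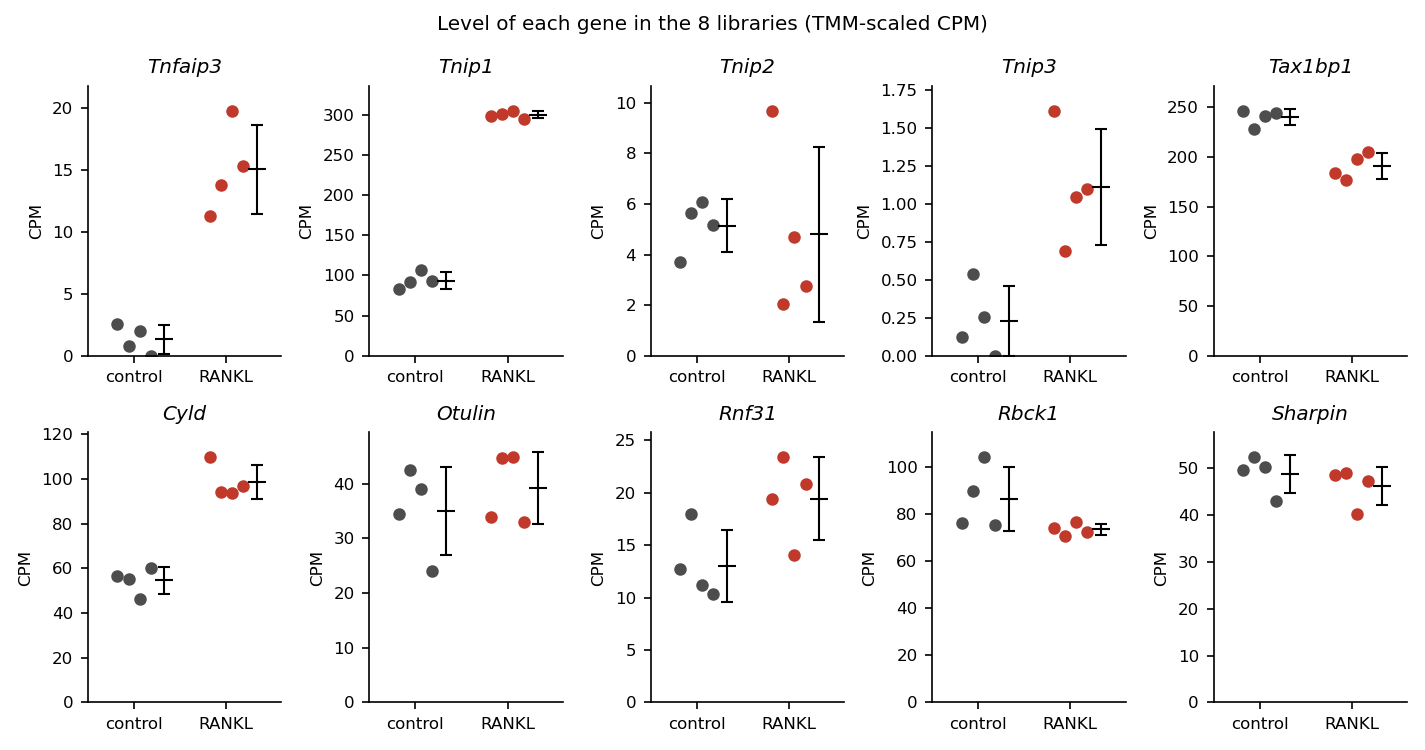
TMM-scaled CPM of the 10 genes in each of 4 control (grey) and 4 RANKL (red) libraries, with the mean and SD of each group beside the points and every axis starting at 0. Tnfaip3, Tnip1 and Cyld lie higher in every RANKL library, Tax1bp1 lies lower, and the LUBAC genes and Otulin overlap.

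Tnfaip3 encodes A20, the ubiquitin-editing enzyme that ends NF-κB signals. It lies on chromosome 10 from 19000910 to 19015657 and was near the floor of detection in control organoids, with 2.55, 0.805, 2.03 and 0 CPM. It reached 11.3, 13.8, 19.8 and 15.4 CPM under RANKL. No RANKL library overlapped a control library, and the lowest of them lay above the 5.16 CPM that a count of 0 still allows in control replicate 4. The log2 fold change was 3.05 (standard error 0.34, edgeR's adjusted p = 2.3e-08), and 64 of the 9971 genes tested had a larger one. The value rests on 31 counts in control and 93 in RANKL libraries, a ratio of 8.32 after scaling to TMM-adjusted library sizes, with a 95% exact binomial interval of 5.49 to 12.9 for counting error only. With library depth in the model the log2 fold change was 4.21 (edgeR's adjusted p = 4.0e-07), a larger rise than without it.

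The ABIN genes encode ubiquitin-binding proteins, of which ABIN1, the product of Tnip1, links A20 to its targets. Tnip1 (chromosome 11, 54910785 to 54962917) was at 82.8, 92.0, 107.4 and 92.9 CPM in the controls and at 298.7, 300.8, 305.1 and 294.9 CPM under RANKL. The groups were far apart, and the RANKL libraries differed from each other by less than the controls did, with an SD of 4.24 CPM against 10.2 CPM. The log2 fold change was 1.68 (standard error 0.11, 95% interval 1.46 to 1.90, edgeR's adjusted p = 1.0e-13).

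Tnip2 (chromosome 5, 34496087 to 34513991), which encodes ABIN2, had too few counts for the test. It was at 3.69, 5.64, 6.08 and 5.16 CPM in the controls and at 9.69, 2.07, 4.69 and 2.75 CPM under RANKL. The groups overlapped, with the highest value and the lowest both in RANKL libraries. From 77 control and 23 RANKL counts the ratio, scaled in the same way, was 0.828 (95% exact binomial interval 0.496 to 1.33), and without the filter on low counts edgeR gave a log2 fold change of -0.34 (adjusted p = 0.68).

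Tnip3 (chromosome 6, 65525313 to 65634040), which encodes ABIN3, was barely detected. The control replicates held 1, 2, 1 and 0 counts and the RANKL replicates 1, 1, 2 and 2 counts. On TMM-adjusted library sizes the ratio was 4.16, with a 95% exact binomial interval from 0.986 to 20, so a difference was not detectable at this depth. Its values in CPM did not overlap between the groups (exact permutation test, p = 0.0286), but 1 count is worth more CPM in the shallower RANKL group. Without the filter edgeR gave an adjusted p of 0.39.

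Of the reads on the ABIN genes together, Tnip1 held 95.6%, 93.7%, 94.4% and 94.7% in the controls and 96.4%, 99.1%, 98.2% and 98.7% under RANKL. The groups did not overlap in this share (p = 0.0286 from an exact permutation test, which cannot give less here). The gap was narrow, since the 95% exact binomial interval of RANKL replicate 1, from 92.6% to 98.5%, covered all 4 control values. This is a share of reads, not of protein.

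Tax1bp1, whose product is a ubiquitin-binding adaptor of A20 and a receptor of selective autophagy, moved against Tnfaip3 and Tnip1. The gene (chromosome 6, 52713729 to 52766780) was at 246.5, 228.1, 241.0 and 244.2 CPM in the controls and at 184.0, 176.9, 197.7 and 204.9 CPM under RANKL. The groups did not overlap, with the highest RANKL value, in replicate 4, under the lowest control value, in replicate 2. The change was small, a log2 fold change of -0.32 (standard error 0.10, 95% interval -0.52 to -0.12, edgeR's adjusted p = 0.015). The call was lost without RANKL replicate 2 (log2 fold change -0.28, adjusted p = 0.072) and with library depth in the model (-0.31, adjusted p = 0.066).

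**Figure D3:**
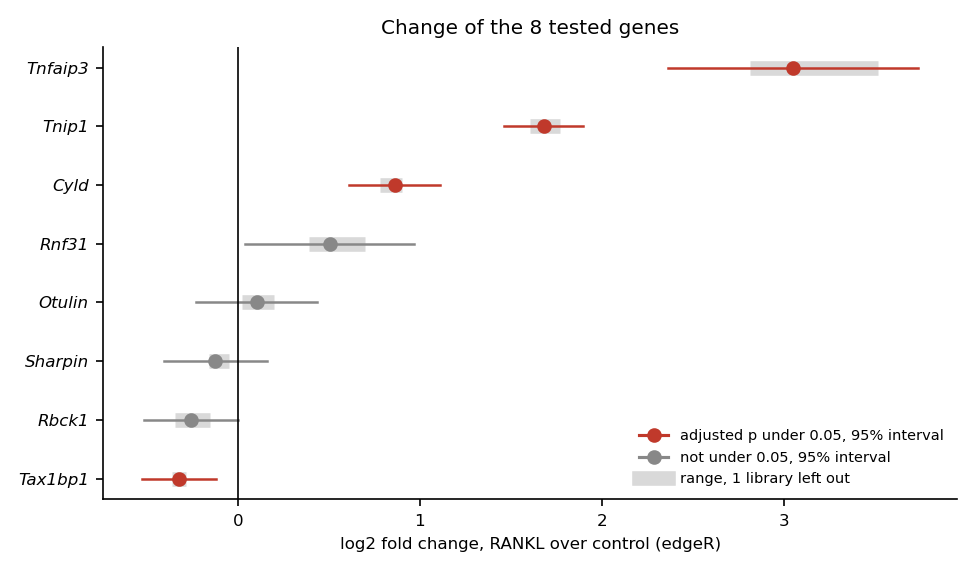
Fitted log2 fold change (points) of the 8 tested genes with its 95% interval (lines) and the range when 1 library was left out (light bars), red where the adjusted p was under 0.05. Tnfaip3 (3.05), Tnip1 (1.68) and Cyld (0.86) lie to the right of 0 and Tax1bp1 (-0.32) to the left.

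Cyld and Otulin encode deubiquitinases that cut linear chains, CYLD also those linked through lysine 63. Cyld (chromosome 8, 88697028 to 88751945) was at 56.7, 55.3, 46.1 and 60.2 CPM in the controls and at 109.8, 94.3, 93.9 and 96.7 CPM under RANKL. The groups did not overlap. Its log2 fold change was 0.86 (standard error 0.12, 95% interval 0.61 to 1.11, edgeR's adjusted p = 2.4e-06), and it passed the threshold under all 17 alternatives computed, as did Tnip1.

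Otulin (chromosome 15, 27542635 to 27630693), whose product is specific for linear chains and binds HOIP, was at 34.5, 42.4, 39.0 and 24.1 CPM in the controls. Under RANKL it was at 33.9, 44.7, 44.9 and 33.0 CPM. The ranges overlapped over most of their length. The log2 fold change was 0.10 with a 95% interval from -0.23 to 0.44 (edgeR's adjusted p = 0.69).

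The LUBAC genes did not pass the threshold. By edgeR 0 of the 3 were called and 1 had an unadjusted p under 0.05, by limma-voom these numbers were the same, and by DESeq2 both were 0. The summed level of the LUBAC genes was 138.5, 160.5, 165.7 and 129.0 CPM in the controls and 142.1, 143.2, 130.9 and 140.6 CPM under RANKL (148.4 ± 17.5 against 139.2 ± 5.64 CPM, SD, n = 4 each; exact permutation test, p = 0.4). The RANKL libraries lay inside the control range.

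Rnf31, which encodes the catalytic subunit HOIP, was at 12.7, 18.0, 11.2 and 10.3 CPM in the controls and at 19.4, 23.4, 14.1 and 20.9 CPM under RANKL. RANKL replicate 3 lay below control replicate 2, and the other RANKL libraries lay above every control. The log2 fold change was 0.51 (standard error 0.23, 95% interval 0.04 to 0.97, edgeR's adjusted p = 0.10). It passed the threshold in 2 of 16 alternatives, without control replicate 2 (adjusted p = 0.034) and without RANKL replicate 3 (adjusted p = 0.049). Rnf31 (chromosome 14, 55591708 to 55603693) shares exonic sequence on the same strand with Irf9, a transcription factor gene of the interferon response, so the counts of both are uncertain. Irf9 was at 22.9 ± 3.28 CPM in the controls and 31.3 ± 6.85 CPM under RANKL (log2 fold change 0.36, adjusted p = 0.15).

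Rbck1 (chromosome 2, 152316334 to 152332653), the gene of HOIL-1, was at 76.3, 90.2, 104.4 and 75.7 CPM in the controls and at 74.3, 70.9, 76.7 and 72.5 CPM under RANKL. The groups overlapped, since RANKL replicate 3 lay above control replicates 1 and 4, and the other RANKL libraries lay below every control. The log2 fold change was -0.26 (standard error 0.13, edgeR's adjusted p = 0.14). Sharpin (chromosome 15, 76347040 to 76351111) was at 49.5, 52.3, 50.2 and 43.0 CPM in the controls and at 48.4, 48.9, 40.2 and 47.2 CPM under RANKL, with a log2 fold change of -0.12 and a 95% interval from -0.40 to 0.16 (adjusted p = 0.56).

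Whether 2 of these genes changed by different amounts was tested on the difference of log2(CPM + 1) within each library, for 10 pairs picked by function, with exact permutation tests and Benjamini-Hochberg adjustment over the 10. Tnfaip3 rose against Tax1bp1 by 3.24 and against Cyld by 2.06 on this scale, and Tnip1 rose against Tnip2 by 1.91 (adjusted p = 0.0476 for each from the exact permutation test). For Tnip1 and Tnip2 the difference was between 3.81 and 4.16 in control libraries and between 4.81 and 6.62 in RANKL libraries. It rests on 77 counts of Tnip2 in control and 23 in RANKL libraries, so its size is uncertain. Among the LUBAC genes, Rnf31 rose against Sharpin by 0.63 (adjusted p = 0.0476 from the exact permutation test), with a narrow gap between the highest control at -1.49 and the lowest RANKL library at -1.45.

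Rnf31 against Rbck1 changed by 0.77 (exact permutation test, adjusted p = 0.0714), Rbck1 against Sharpin by -0.14 (0.286), Tnfaip3 against Tnip1 by 1.24 (0.0714) and Cyld against Otulin by 0.68 (0.0952). With 1 library left out, these 4 changes ranged from 0.62 to 0.93, from -0.23 to -0.06, from 0.88 to 1.55 and from 0.54 to 0.89. The pairs of Tnip3 with Tnip1 (change 0.89) and Tnip2 (-1.02) also had an adjusted p of 0.0476 from the exact permutation test, but rest on the 10 counts of Tnip3. The adjusted values sit close to the threshold because the exact permutation test cannot give a pair less than p = 0.0286. Pairs tied at this smallest p share an adjusted value, which is lower the more pairs share it. The pairs with Tnip3 were among those tied, so the calls of the other pairs rest in part on these few counts. With a pseudocount of 2 CPM no pair passed the threshold, although the changes kept their direction. The change of Tnfaip3 against Tnip1 depended on this choice, with 1.67 at 0.5 CPM (adjusted p = 0.0476 from the exact permutation test) and 0.74 at 2 CPM (0.0952).

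**Figure D4:**
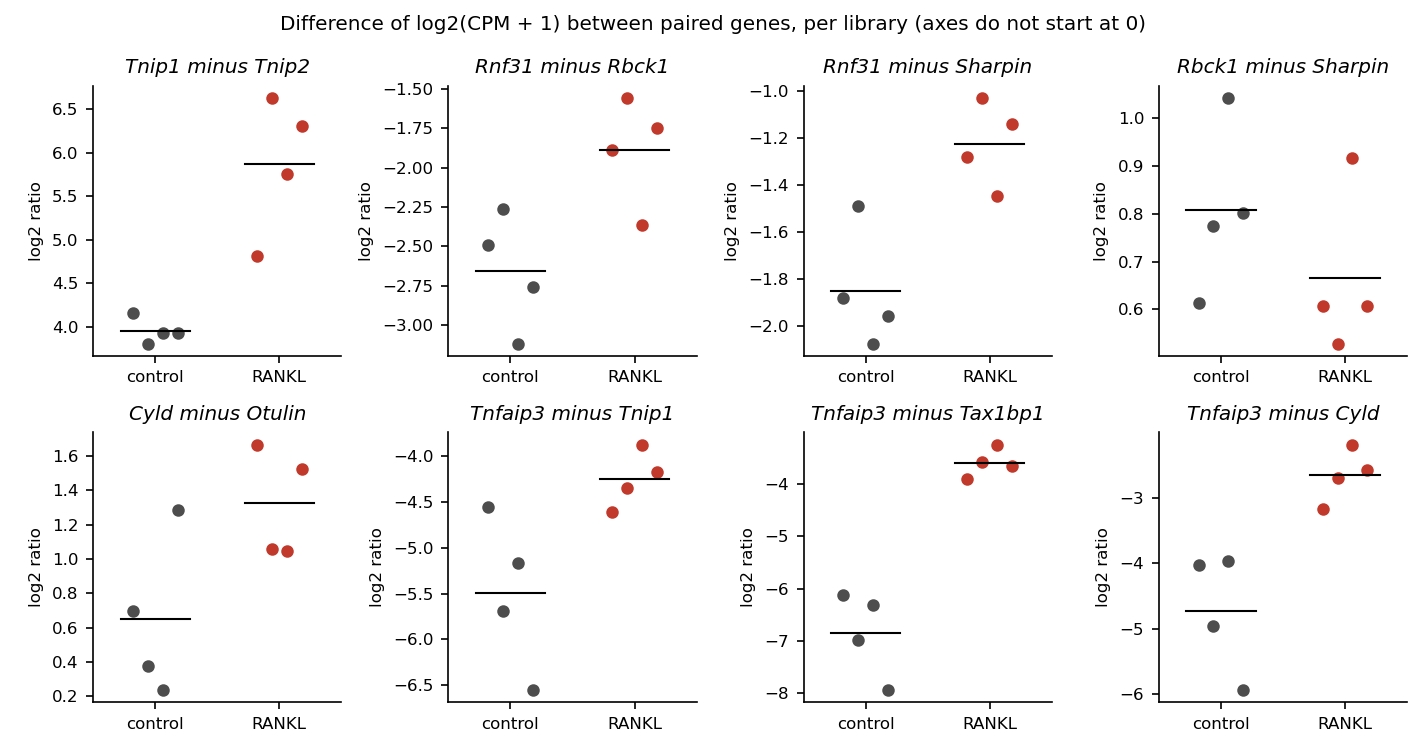
Difference of log2(CPM + 1) between the genes of 8 pairs in each control (grey) and RANKL (red) library, with group means as lines and axes that do not start at 0. The groups are apart for Tnip1 minus Tnip2, Rnf31 minus Sharpin, Tnfaip3 minus Tax1bp1 and Tnfaip3 minus Cyld, and overlap in the other panels.

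Other genes of the pathway were read from 7 lists that together held 74 genes. Of the 62 tested, 19 were higher (30.6%) and 6 lower (9.68%), with a median log2 fold change of 0.08. Over all genes tested 13.6% were higher and 12.4% lower, and the counts per list below stand beside these shares. The list of NF-κB feedback genes, which includes the NF-κB subunit genes Nfkb1 and Nfkb2, accounted for many of the rises. In it 9 of 12 tested were higher and 1 lower, with a median of 1.16. Nfkbia, the gene of the inhibitor IκBα, rose from 259.6 ± 47.4 to 2436 ± 55.2 CPM (SD, n = 4 each), which is 3.24 on the log2 scale. Nfkb2 (3.48), Nfkbie (3.31) and Bcl3 (2.83), which encode an NF-κB precursor and further members of the IκB family, also rose. Nfkbie was near the floor of detection in the controls, at 0.797 ± 0.775 CPM, so the size of its rise is uncertain. The gene that fell was Zfp36, whose product promotes decay of cytokine messengers.

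Among 8 partners of A20, 7 were tested, and Birc3, Traf2 and Birc2 were higher. Birc3 (log2 fold change 2.19) and Birc2 (0.56) encode the ligases cIAP2 and cIAP1, and Traf2 (0.87) the adaptor that recruits them. The ligase genes Itch and Traf6, Rnf11 and the kinase gene Ripk1 did not pass the threshold, and the median of the 7 was 0.35. Spata2, whose product bridges CYLD to HOIP, and its paralogue Spata2l had too few counts for the test, as had Otulinl, the inactive paralogue of Otulin.

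Of 20 further deubiquitinase genes, 17 were tested, and their median log2 fold change was 0.04, with 2 higher and 2 lower. Otud5 rose from 81.7 ± 9.17 to 134.1 ± 11.9 CPM (log2 fold change 0.67, edgeR's adjusted p = 3.8e-05), and Usp4 had 0.33 (adjusted p = 0.048). Stambpl1, which encodes a protease for lysine-63 chains, fell from 19.3 ± 1.12 to 7.10 ± 1.70 CPM (log2 fold change -1.42, adjusted p = 4.7e-05), and Usp31 had -0.87 (adjusted p = 0.031) with overlap between the groups.

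Of 14 genes for conjugation of ubiquitin, 12 were tested, with a median log2 fold change of 0.21. The conjugating enzyme genes Ube2d1 (log2 fold change 0.81), Ube2k (0.39) and Ube2d3 and the ligase gene Peli1 (0.53) were higher. Xiap (-0.40), the gene of another ligase, was lower with overlap between the groups. Among 12 genes for readers of the chains, all tested, the median was 0.04. Tank, an adaptor gene of the kinase TBK1, rose from 15.2 ± 0.74 to 29.6 ± 1.39 CPM (log2 fold change 0.97, edgeR's adjusted p = 1.1e-04), and Tab2, whose product reads lysine-63 chains for the kinase TAK1, had -0.34 (adjusted p = 0.027). Of the 4 ubiquitin genes 2 were tested, and Ubb fell from 56.1 ± 8.65 to 41.5 ± 7.79 CPM (log2 fold change -0.44, adjusted p = 0.037), with overlap between the groups.

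**Figure D5:**
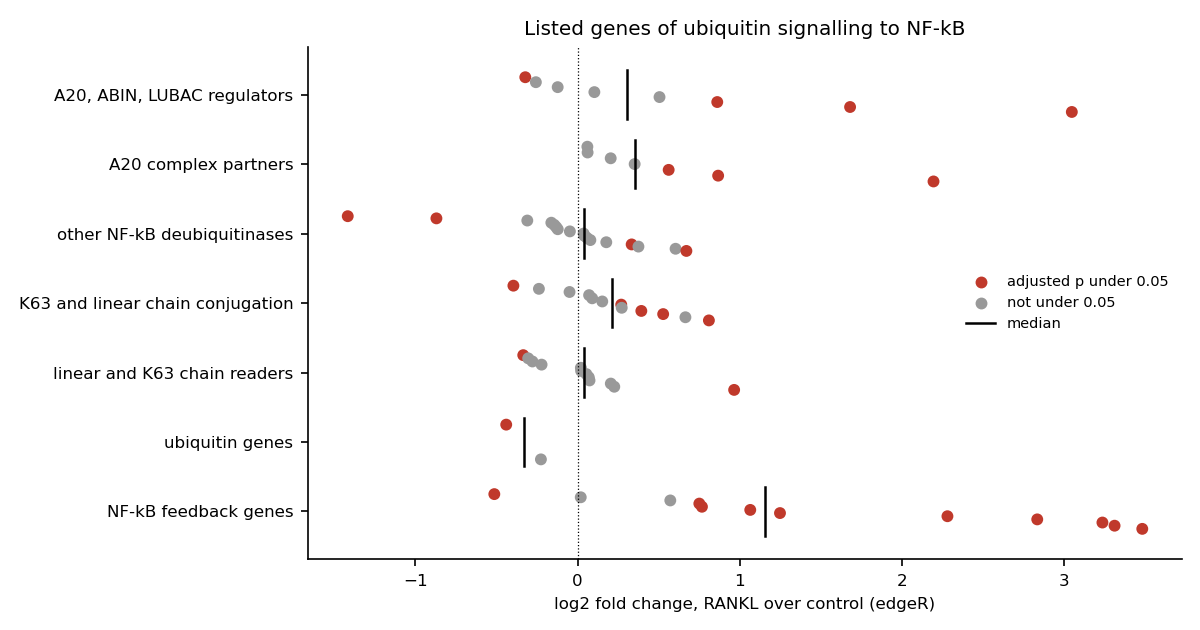
Fitted log2 fold change of each tested gene in the 6 lists with tested members and in the A20, ABIN and LUBAC group (1 point per gene, red where the adjusted p was under 0.05, black line at the median). The NF-κB feedback list has its median at 1.16, and the deubiquitinase and chain reader lists have theirs at 0.04.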

How the data were processed

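Total RNA of the 8 libraries was sequenced from transcript 3′ ends (QuantSeq FWD, single reads of 50 bases). The authors trimmed reads with BBDuk, removed abundant sequences with bowtie2, aligned to GRCm38 with STAR, and deposited raw counts per gene of the Ensembl annotation from featureCounts, counted by strand. Ambiguous reads of overlapping genes and PCR copies can alter such counts. Symbols matched for 54409 of 54532 identifiers. Coordinates are those of GENCODE M21.

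Groups and replicate numbers came from the sample titles. The main test was edgeR 4.0.16's quasi-likelihood test in R 4.3.3 (TMM, filterByExpr, Benjamini-Hochberg over all genes tested, threshold 0.05), and the standard error is the log2 fold change divided by the square root of F. Exact two-sided permutation tests used SciPy 1.17.1. The fits were tested on simulated counts. Alternatives used DESeq2 1.42.0, limma 3.58.1, other scalings, filters and covariates, and each library left out.

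The 10 genes and the lists were chosen with earlier results of these data known. From each list, up to 4 genes past the threshold with the largest change at a mean of at least 5 CPM are named, as are genes whose exons overlap a member's on the same strand. Other named list genes, Zfp36, Ube2d3 and Nfkb1 among them, and the named markers fall outside this rule and were picked with their values known.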

Additional observations from a re-analysis of the deposited data

How the results depend on the processing

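The rises of Tnip1 and Cyld passed the threshold in all 17 alternatives, and that of Tnfaip3 in the 16 that could test it, with a log2 fold change from 2.81 to 4.21, the highest with library depth in the model. Tnfaip3 and Rnf31 were not tested where at least 10 counts were required in every library. Tax1bp1 lost its call at an adjusted p of 0.01 (log2 fold change -0.32), with library depth (log2 of the total) in the model (-0.31) and without RANKL replicate 2, and 0 members were lower in these settings. With 1 library left out its log2 fold change ranged from -0.36 to -0.28, that of Rnf31 from 0.39 to 0.70, and the members lower from 0 to 1. All genes lower numbered 1232, against 808 with the covariate, 707 at an adjusted p of 0.01 and 814 to 1234 with 1 library left out (814 without RANKL replicate 4). Pathway list genes lower numbered 6, against 3 under DESeq2 and 2 to 6 with 1 library left out (2 without RANKL replicate 4). With a pseudocount of 2 CPM the pair changes and adjusted p-values from exact permutation tests were 1.85 for Tnip1 and Tnip2, 1.18 for Tnip1 and Tnip3, 0.59 for Rnf31 and Sharpin, 2.73 for Tnfaip3 and Tax1bp1 and 1.56 for Tnfaip3 and Cyld (0.0571 each), -0.66 for Tnip2 and Tnip3 and 0.74 for Tnfaip3 and Tnip1 (0.0952 each). With 0.5 CPM, Tnfaip3 and Tnip1 came to 1.67 (0.0476) and Tnip1 and Tnip3 to 0.51 (0.159). The pairs at 0.0571 kept the smallest p of the exact permutation test, 0.0286, while fewer pairs shared it, which raises the adjusted value. The cause of the other losses was not tested.

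With the replicate number as a block, 3 members were higher and 1 lower, as without it, and all genes higher and lower numbered 1362 and 1248 against 1355 and 1232. Deviations of same-numbered control and RANKL libraries correlated between -0.034 and 0.104, and those of differently numbered ones between -0.138 and 0.088. Counting error in the shallow libraries weakens such correlations, so they cannot decide whether the numbers pair the libraries.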
